A study of Mus musculus with 10 samples.

Results

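The genes of the cytosolic translation initiation and elongation factors were examined in hearts of male mice whose mothers had received anti-Müllerian hormone (AMH) while pregnant. Members were all protein-coding genes of the GENCODE vM21 mouse annotation whose symbol begins with Eif1 to Eif6, Eef1 or Eef2, without the Eif2ak kinase genes and Eef2k. They numbered 63 of the 55335 genes in the deposited table, of which 21899 were protein-coding genes of that annotation. The PAMH group (prenatal AMH) held 5 heart samples from sons of AMH-treated dams. The control group held 5 heart samples from sons of dams given vehicle, named in the labels as PBS. All 10 samples were labelled WT. Exposure to AMH before birth serves to model polycystic ovary syndrome in mice. The labels say nothing of strain, age at sampling, AMH dose or dam. Each p-value is therefore set against the differences among these 5 and 5 samples, whether those are technical, of single animals or of whole litters.

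Translation starts when eIF2, loaded with GTP and the initiator methionyl tRNA, joins the small ribosomal subunit together with eIF1, eIF1A, eIF3 and eIF5, and this complex is brought to the capped end of an mRNA by eIF4F. Within eIF4F, eIF4E binds the cap, eIF4G is the scaffold, and eIF4A is an RNA helicase that unwinds the leader and is stimulated by eIF4B and eIF4H. During elongation, eEF1A delivers charged tRNAs to the ribosome and eEF2 moves the ribosome along the mRNA. Adult striated muscle is known for making most of its eEF1A from the Eef1a2 gene, and heart growth is known to draw on both eIF4F and eEF2 control.

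Values were FPKM, read fragments scaled to transcript length and to library total, which allow levels to be compared between genes per length. They summed to 654350 to 717453 per sample. The sequencing depth behind them is unknown, because gene values had been summed over several transcripts and whole reads could not be recovered. Of the cell type marker lists examined, that of cardiomyocytes had the highest sum in every sample. Its 9 markers summed to 9096 to 15083 FPKM in PAMH hearts and to 10271 to 12860 FPKM in control hearts, and none passed the test. PAMH replicate 4 stood apart. It held the highest or the lowest of the 10 values in 47.5% of the tested members and in 51.1% of all tested genes, and its hemoglobin sum was 859 FPKM, against 97.1 to 436 FPKM in the other 9 samples. Its deviations from the median of the other 9 samples correlated with the GC content of the members' transcripts (Pearson r = 0.59 over 59 members, a description). So did those of control replicate 2 (r = 0.72). Results were therefore also computed without each sample.

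Elongation factor mRNAs were the most abundant members. Eef1a2, the muscle and neuron form of eEF1A, averaged 461 ± 49.4 FPKM in PAMH hearts and 459 ± 45.5 FPKM in control hearts (SD, n = 5 each). Eef2, the translocase, followed with 325 ± 21.1 FPKM in PAMH hearts and 355 ± 22.9 FPKM in control hearts. The widely expressed form Eef1a1 averaged 198 ± 16.5 FPKM in PAMH hearts and 205 ± 8.61 FPKM in control hearts. Eef1a2 lay above Eef2 and Eef2 above Eef1a1 in all 10 samples, so the order of these 3 genes did not depend on the group. Below them came Eif1, which guards start codon choice, with 116 ± 13.1 FPKM in PAMH hearts and 110.4 ± 8.40 FPKM in control hearts. Eif3h, Eif5a and Eef1g followed with means over all samples of 84.0, 78.0 and 70.8 FPKM, and the ranges of these neighbours overlapped. In all, 34 of the tested members averaged at least 10 FPKM. At the low end, 4 members averaged under 1 FPKM and were not tested: Eif5a2, Eif4ebp3, Eef1akmt3 and Eif4e1b, the eIF4E form known from oocytes, which was listed at 0 in every sample.

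**Figure D1:**
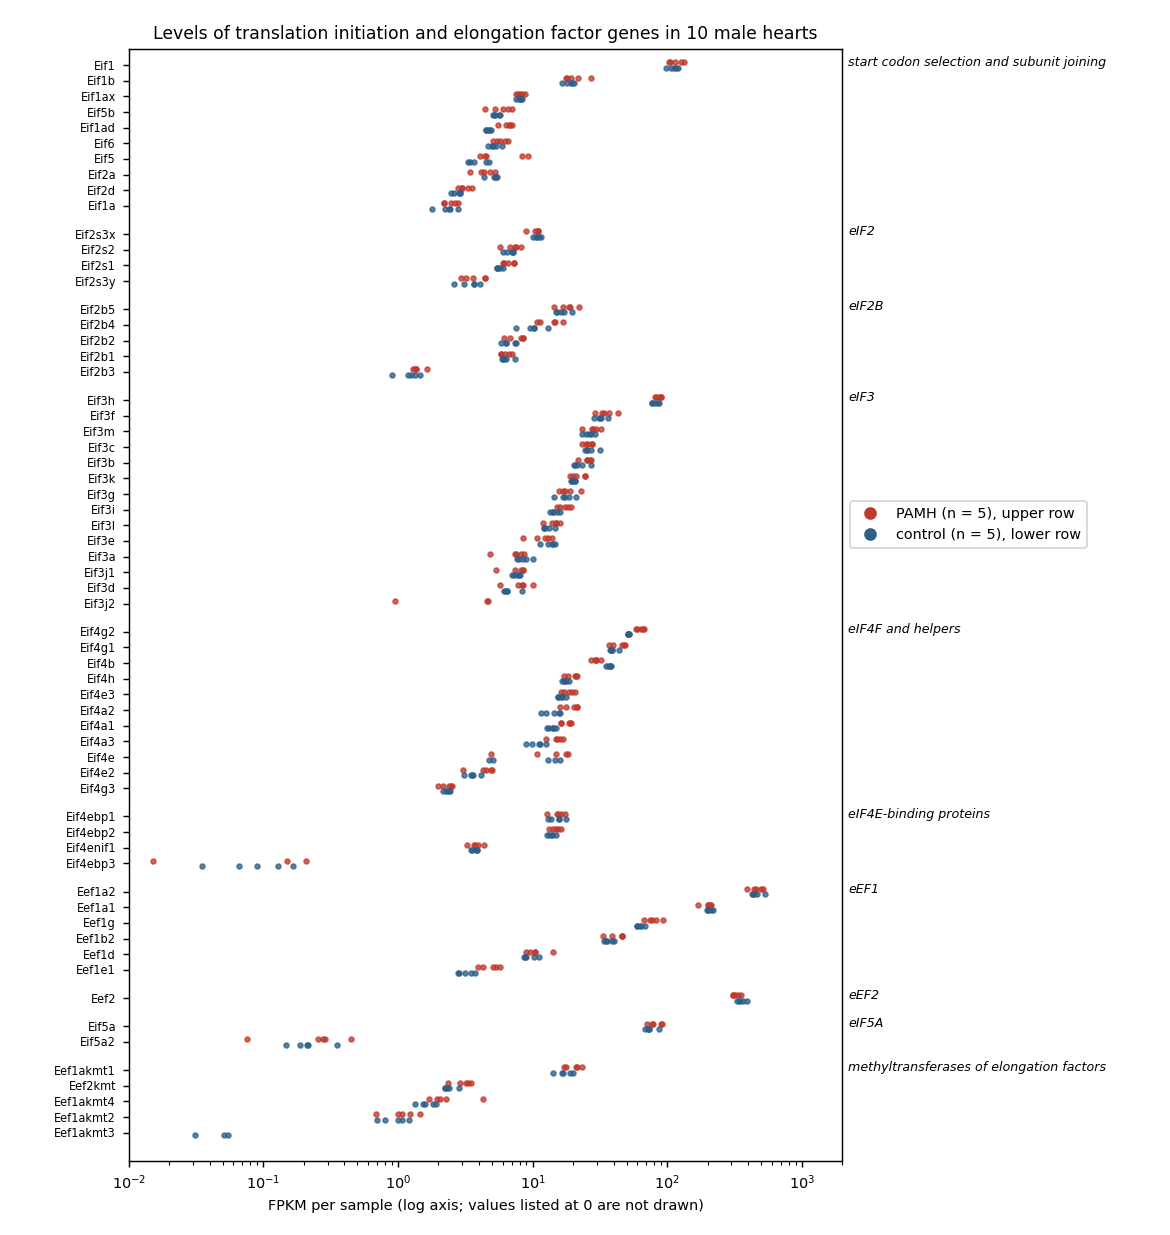
FPKM of each translation factor gene in each sample, on a log axis, grouped by role; PAMH samples are the upper and control samples the lower row of points for each gene. Eef1a2, Eef2 and Eef1a1 lie to the right of every other member, and within most genes the PAMH and control points overlap.

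Of the 59 members tested, 7 passed an adjusted p of 0.05 in limma's moderated test of log2(FPKM + 1), with Benjamini-Hochberg adjustment over all 9439 genes that averaged at least 1 FPKM. Eif4a1, Eif4a2, Eif4a3, Eif4g2, Eif1ad and Eef1e1 were higher in PAMH hearts, and Eif4b was lower. The 7 calls were 11.9% of the tested members, against 6.19% of all tested genes. By direction, 6 members were higher, against 4.95% of all tested genes, and 1 was lower, against 1.24%. All 5 PAMH values lay above all 5 control values in 7 members, against 6.74% of all tested genes, and below them in 1 member, against 1.71%. The estimate was positive in 48 of 59 members (47 of 58 without Eif3j2, which passed the filter through the PAMH group alone), against 67.3% of all tested genes, and the median log2 fold change (PAMH minus control) was 0.13 over the members and 0.07 over all tested genes. Changes on this scale understate the fold of genes with low FPKM.

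The number of calls was sensitive to single samples and to scaling. It was 3 without PAMH replicate 1, 4 without PAMH replicate 5, 2 without control replicate 3 and 3 without control replicate 4, and it was 9 without PAMH replicate 3 and 9 without PAMH replicate 4. Calls over all tested genes moved the same way. Without these samples, in the same order, 3.29%, 3.66%, 2.95%, 3.23%, 11.9% and 7.20% of all tested genes passed, against 6.19% with all samples. With samples rescaled by the median of gene-wise ratios the calls were 2 higher and 1 lower, and with quantile normalization 2 higher and 2 lower. The same scalings brought the calls over all tested genes to 218 higher and 212 lower, and to 234 higher and 246 lower, against 467 higher and 117 lower on the deposited FPKM. Eif1ad and Eif4b passed under every sample left out and every scaling. Eif4b did so only narrowly with samples rescaled to the same sum (log2 fold change -0.27, limma adjusted p = 0.04997). Among the marker lists of other heart cell types, 1 of 6 macrophage markers (Cd68) and 1 of 1 tested mesothelial marker (Upk3b) were higher and 1 of 7 endothelial markers (Cldn5) was lower. Macrophage marker sums were 92.6 to 109.8 FPKM in PAMH hearts and 78.8 to 92.7 FPKM in control hearts, mesothelial sums 2.19 to 5.67 FPKM in PAMH hearts and 0.404 to 1.04 FPKM in control hearts, and endothelial sums 66.1 to 83.8 FPKM in PAMH hearts and 75.9 to 93.7 FPKM in control hearts. No marker passed among the 6 fibroblast, 5 erythroid and 5 tested smooth muscle and pericyte markers, and the lymphocyte, adipocyte, Schwann cell and neuron markers were all below the filter. Their part in the results was not tested, and in whole hearts a change in cell number and a change in RNA per cell cannot be told apart.

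**Figure D2:**
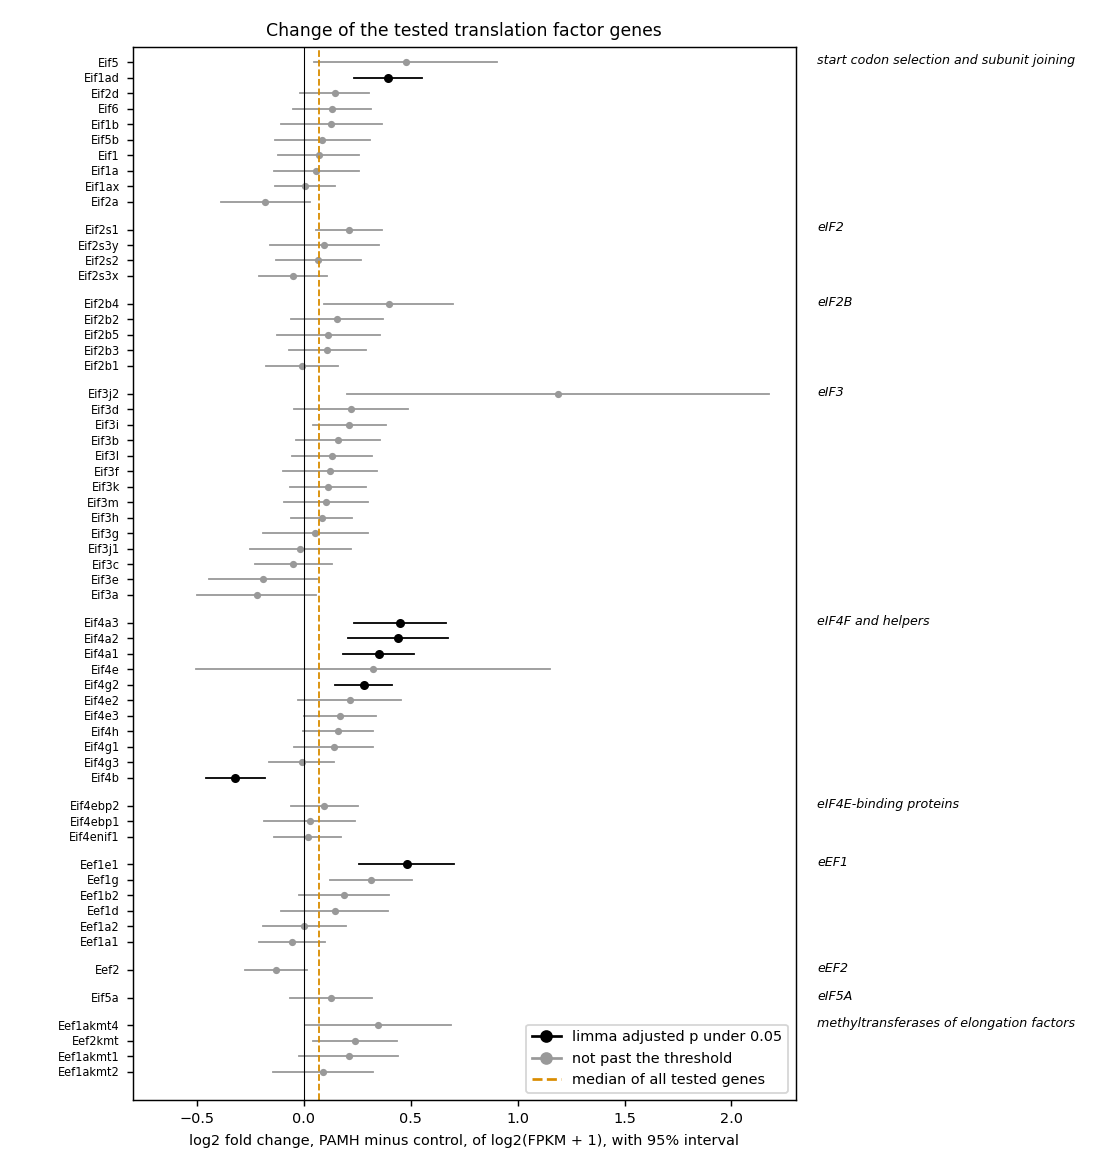
Log2 fold change of each tested member, PAMH minus control, on the log2(FPKM + 1) scale with its 95% interval, grouped by role; black marks a limma adjusted p under 0.05 and the dashed line is the median of all tested genes, 0.07. Of the 7 black points, 5 lie among the genes plotted as eIF4F and helpers, which take in Eif4a3 and Eif4g2 by symbol, and Eif4b is the only one left of 0.

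The helicases of the eIF4A family were higher in PAMH hearts, all 3 of them. Eif4a1 (chr11:69666936-69672423 in GRCm38), the main helicase of eIF4F in growing cells, had 19.0, 16.2, 16.2, 18.6 and 19.4 FPKM in PAMH hearts and 14.1, 14.8, 12.7, 13.2 and 14.1 FPKM in control hearts. No control value reached the lowest PAMH value, and the log2 fold change was 0.35 (SE 0.08, limma adjusted p = 0.0196). Eif4a2 (chr16:23107444-23114136), the closely related helicase that is prominent in differentiated tissues, had 21.4, 20.4, 17.8, 16.0 and 21.3 FPKM in PAMH hearts and 14.5, 11.5, 12.5, 15.6 and 15.9 FPKM in control hearts. The groups did not overlap, though PAMH replicate 4 was only just above control replicate 5, and the log2 fold change was 0.44 (SE 0.11, limma adjusted p = 0.0333). Eif4a3 (chr11:119288363-119300089) encodes the helicase of the exon junction complex, which marks spliced mRNAs and is not part of eIF4F. It had 15.9, 15.1, 12.5, 16.9 and 14.9 FPKM in PAMH hearts and 11.1, 12.5, 9.91, 8.92 and 11.4 FPKM in control hearts. The groups touched without overlapping, with PAMH replicate 3 lowest and control replicate 2 highest at the meeting point, and the log2 fold change was 0.45 (SE 0.10, limma adjusted p = 0.0214).

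These calls were not equally firm. Eif4a1 missed the threshold without PAMH replicate 1 or 5 or control replicate 3 or 4 (limma adjusted p from 0.0523 to 0.0616), Eif4a3 without PAMH replicate 1 or control replicate 3 or 4 (0.0559 to 0.0631), and Eif4a2 without PAMH replicate 1, 2 or 5 or control replicate 1, 2 or 3 (0.0648 to 0.0901). Under median ratio scaling and quantile normalization Eif4a3 still passed, whereas Eif4a1 had adjusted p-values of 0.0529 and 0.0679 and Eif4a2 of 0.0833 and 0.152 in limma. With no filter on low values Eif4a3 and Eif4a2 missed the threshold (0.0671 and 0.0979), and Eif4a2 did so with mitochondrial genes left out (0.0534).

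Eif4a1 has a near-identical processed pseudogene, Eif4a-ps4 (chr1:60703932-60705149), which matched it at 99.9% over 1218 bases. The table listed this copy at 18.1, 17.7, 16.3, 20.4 and 16.2 FPKM in PAMH hearts and at 11.9, 13.2, 11.7, 13.1 and 11.1 FPKM in control hearts. It did not overlap between the groups either and its log2 fold change was 0.51 (SE 0.08, limma adjusted p = 0.00527). How reads matching both were divided is not given, so the level of either gene alone is uncertain. Summed over both, the values averaged 35.6 ± 2.56 FPKM in PAMH hearts and 26.0 ± 1.35 FPKM in control hearts (SD, n = 5 each), again with no overlap. A short pseudogene of Eif4a2, Gm2999, matched it at 99.3% over 307 bases and averaged 3.96 FPKM in PAMH hearts and 2.56 FPKM in control hearts. Eif4a2 also shares its last bases (chr16:23113943-23114136) with Rfc4 on the other strand, and the strand setting of the counting is not given.

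The promoters of the 3 helicase genes and of Eif4b, the helicase stimulator that changed the other way, are shown because these 4 genes are partners in unwinding or members of the same helicase family and passed in opposite directions. RefSeq (GRCm38.p6) windows were available for 47 of the 63 members, and the stretches run 5′ to 3′ from 250 bases before the annotated start to 20 bases after it. Capitals mark matches, on either strand, to the E-box CACGTG, known as a site of Myc and related factors, to the CCAAT box, to the ETS-type motif CCGGAAG, or to the cAMP response element TGACGTCA.
Eif4a1, chr11:69672404-69672673, minus strand: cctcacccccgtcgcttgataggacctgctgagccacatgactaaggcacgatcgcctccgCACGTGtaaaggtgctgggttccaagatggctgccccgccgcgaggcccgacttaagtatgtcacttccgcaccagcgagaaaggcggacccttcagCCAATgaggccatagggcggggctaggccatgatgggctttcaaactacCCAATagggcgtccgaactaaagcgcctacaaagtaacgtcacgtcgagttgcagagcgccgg
Eif4a2, chr16:23107218-23107487, plus strand: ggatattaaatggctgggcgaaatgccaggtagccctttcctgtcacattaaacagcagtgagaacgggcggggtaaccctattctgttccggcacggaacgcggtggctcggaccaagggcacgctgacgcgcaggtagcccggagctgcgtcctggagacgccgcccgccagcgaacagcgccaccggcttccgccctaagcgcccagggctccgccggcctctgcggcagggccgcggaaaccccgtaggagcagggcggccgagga
Eif4a3, chr11:119300024-119300293, minus strand: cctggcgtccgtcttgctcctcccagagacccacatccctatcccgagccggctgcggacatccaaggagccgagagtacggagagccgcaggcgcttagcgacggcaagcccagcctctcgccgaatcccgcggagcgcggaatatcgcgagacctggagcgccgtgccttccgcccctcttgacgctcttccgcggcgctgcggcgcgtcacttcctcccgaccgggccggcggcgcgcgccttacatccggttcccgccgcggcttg
Eif4b, chr15:102073523-102073792, plus strand: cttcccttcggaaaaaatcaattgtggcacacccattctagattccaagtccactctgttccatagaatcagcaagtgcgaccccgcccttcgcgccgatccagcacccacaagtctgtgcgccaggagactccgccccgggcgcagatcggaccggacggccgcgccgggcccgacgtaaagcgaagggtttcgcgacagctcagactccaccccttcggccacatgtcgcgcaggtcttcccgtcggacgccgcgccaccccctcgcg
Of these 4 stretches, the Eif4a1 stretch alone held matches, 1 to CACGTG and 2 to CCAAT. Across the 300-base windows, CACGTG occurred in 10 of 47 members (21.3%), against 7.24% of 27025 genes and 7.90% of the 17492 protein-coding ones. CCGGAAG occurred in 14 of 47 members (29.8%), against 9.12% of all genes and 11.9% of protein-coding genes. CCAAT occurred in 13 of 47 members (27.7%), against 37.9% and 39.0%. TGACGTCA occurred in 1 member, Eef2 (2.13%), against 1.88% and 2.34%. None of these motifs contains another. Of the 6 called members with a window, CACGTG was found in Eif4a1, CCGGAAG in Eif1ad, and CCAAT in Eif4a1 and Eef1e1. A match describes the letters of the window and no binding was measured.

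**Figure D3:**
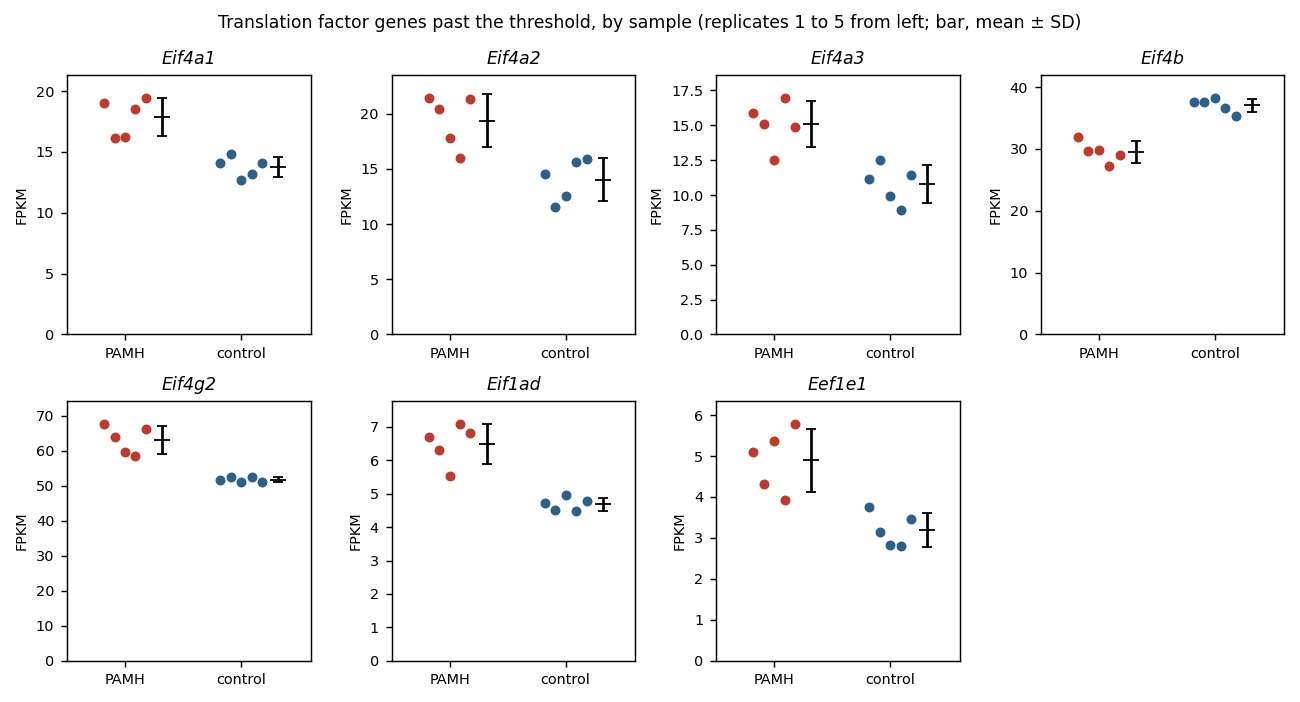
FPKM per sample of the 7 members that passed the threshold, with axes from 0; points are replicates 1 to 5 from left and bars are mean ± SD. In each panel the PAMH points clear the control points, above them in 6 genes and below them in Eif4b.

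Eif4b was the member that fell. Its product (chr15:102073773-102097173) raises the helicase activity of eIF4A, and its mRNA carries a 5′ terminal oligopyrimidine (TOP) tract of the kind found in ribosomal protein mRNAs. It had 32, 29.6, 29.8, 27.2 and 29.0 FPKM in PAMH hearts and 37.5, 37.6, 38.2, 36.5 and 35.4 FPKM in control hearts. Every PAMH value was below every control value, and Eif4b fell by 0.32 on the log2 scale (SE 0.06, limma adjusted p = 0.0138). Its call ended only with replicate number as a block, at an adjusted p of 0.0519 in limma. Eif4h, which resembles part of eIF4B and also stimulates eIF4A, averaged 19.7 ± 1.85 FPKM in PAMH hearts and 17.5 ± 0.766 FPKM in control hearts, without passing the test (log2 fold change 0.16, limma adjusted p = 0.216).

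Because the helicases and their stimulator changed in opposite directions, their balance within a sample differed more than either did. The FPKM of Eif4b over the sum of Eif4a1 and Eif4a2 was 0.792, 0.809, 0.877, 0.787 and 0.712 in PAMH hearts and 1.31, 1.43, 1.51, 1.27 and 1.179 in control hearts. Each PAMH value lay below each control value. The ratio ran lower in both groups with other helicase genes in the sum. With Eif4a3 added it was 0.522 to 0.641 in PAMH hearts and 0.854 to 1.09 in control hearts. With the copy Eif4a-ps4 added instead it was 0.495 to 0.593 in PAMH hearts and 0.860 to 1.04 in control hearts. Each of these genes alone already separated the groups, so any ratio of Eif4b to them had to do so and adds no support. These ratios, like the share given for the elongation factors, were chosen after the values were seen and are given as a description with no test, and they do not depend on a scaling factor of the sample. Eif4b over Eif4a1 alone averaged 1.66 ± 0.180 in PAMH hearts and 2.70 ± 0.204 in control hearts, and Eif4b over Eif4a2 alone averaged 1.54 ± 0.147 in PAMH hearts and 2.69 ± 0.450 in control hearts (SD, n = 5 each).

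**Figure D4:**
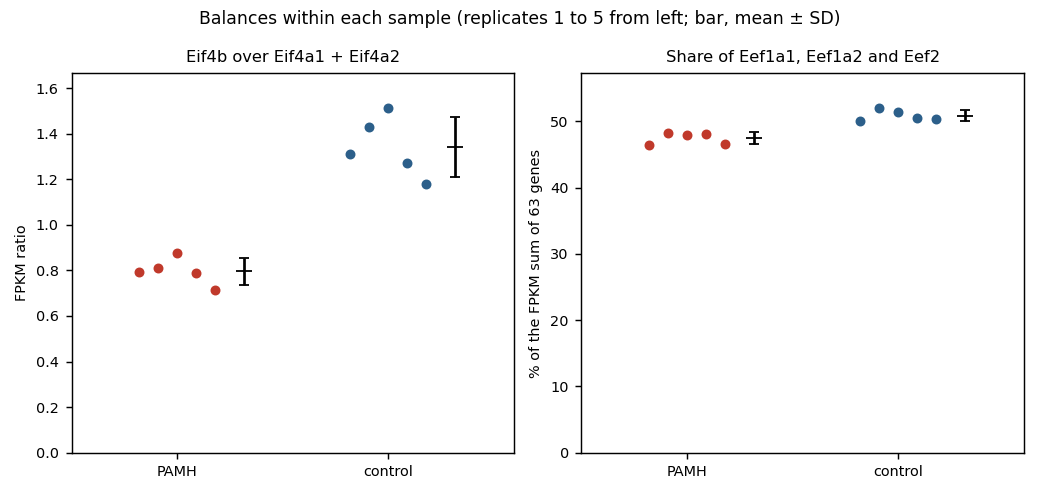
Left, FPKM of Eif4b over the summed FPKM of Eif4a1 and Eif4a2; right, percent of the FPKM sum of all 63 members held by Eef1a1, Eef1a2 and Eef2; points are replicates 1 to 5 from left and bars are mean ± SD, with axes from 0. PAMH points run from 0.712 to 0.877 and control points from 1.179 to 1.51 on the left, and from 46.4% to 48.3% and from 50.1% to 52.1% on the right.

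Of the scaffold genes, Eif4g2 rose. Eif4g2 (chr7:111067750-111083030), also known as DAP5, lacks the eIF4E binding site and supports cap-independent initiation. It had 67.5, 64.0, 59.5, 58.4 and 66.2 FPKM in PAMH hearts and 51.5, 52.4, 51.2, 52.4 and 51.2 FPKM in control hearts. The control values spanned little more than 1 FPKM and all lay below the lowest PAMH value, with a log2 fold change of 0.28 (SE 0.06, limma adjusted p = 0.0214). The call ended without PAMH replicate 1 or 5 or control replicate 1, 3, 4 or 5 (limma adjusted p from 0.0532 to 0.0631), and under median ratio scaling and quantile normalization (0.0872 and 0.233). Eif4g1, the scaffold of eIF4F itself, had 48.4, 47.5, 37.0, 46.2 and 39.9 FPKM in PAMH hearts and 38.5, 43.6, 39.1, 37.8 and 38.5 FPKM in control hearts. The groups overlapped, and the log2 fold change of 0.14 (95% interval -0.05 to 0.32) did not pass the test in limma (adjusted p = 0.342). Eif4g3, a further scaffold form, was the lowest tested gene of this group, with 2.304 ± 0.230 FPKM in PAMH hearts and 2.32 ± 0.111 FPKM in control hearts.

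The cap-binding protein gene Eif4e varied several-fold within both groups. It had 18.3, 14.8, 4.87, 10.8 and 17.7 FPKM in PAMH hearts and 15.9, 13.1, 14.7, 5.07 and 4.76 FPKM in control hearts. PAMH replicate 3 and control replicates 4 and 5 were low, so the log2 fold change of 0.32 had a 95% interval of -0.51 to 1.15 and an adjusted p of 0.647 in limma. An Eif4e pseudogene, Gm7327, matched it at 98.6% over 654 bases and was listed at 1.75 to 4.59 FPKM. The eIF4E-binding proteins hold eIF4E away from eIF4G until mTOR phosphorylates them. Eif4ebp1 had 16.2, 12.8, 15.5, 17.4 and 15.2 FPKM in PAMH hearts and 15.6, 17.7, 15.6, 13.8 and 12.9 FPKM in control hearts. These ranges lay almost on top of each other, with a log2 fold change of 0.03 (95% interval -0.19 to 0.24, limma adjusted p = 0.893), whose sign turned under other scalings. Eif4ebp2 and Eif4enif1, which encodes an eIF4E transporter, did not pass either, at log2 fold changes of 0.10 and 0.02. In all, the genes of eIF4F and its relatives had 4 members higher (4.95% of all tested genes were), 1 lower (1.24% were) and 6 that did not pass among 11 tested, with a median log2 fold change of 0.21 (0.07 over all tested genes), and none of the 3 tested genes of the eIF4E-binding group passed.

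Among the 10 genes of start codon selection and subunit joining, 1 passed the test. Eif1ad (chr19:5366741-5371526) encodes a protein with an eIF1A-like domain and was placed in this group by its symbol. It had 6.70, 6.31, 5.54, 7.07 and 6.83 FPKM in PAMH hearts and 4.73, 4.52, 4.95, 4.47 and 4.77 FPKM in control hearts. All PAMH values were above all control values, and the log2 fold change was 0.39 (SE 0.07, limma adjusted p = 0.0105), the smallest adjusted p of any member. It passed in 20 of 21 alternatives, all but the replicate block (limma adjusted p = 0.0516). The 5′ end of Eif1ad overlaps Banf1 on the other strand (chr19:5366741-5367168). Banf1 averaged 19.95 ± 5.76 FPKM in PAMH hearts and 14.3 ± 3.32 FPKM in control hearts (limma adjusted p = 0.204), and its part in the Eif1ad values was not tested.

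The other genes of this group did not pass. Eif5, the activator of eIF2's GTP hydrolysis, had 4.05, 4.41, 9.25, 4.51 and 8.36 FPKM in PAMH hearts and 3.68, 3.402, 4.47, 4.71 and 3.31 FPKM in control hearts. PAMH replicates 3 and 5 stood high and the other PAMH values lay within the control range, with a log2 fold change of 0.48 (95% interval 0.05 to 0.90, limma adjusted p = 0.162). Eif6, which keeps the large ribosomal subunit from joining early, had 6.28, 5.71, 5.04, 6.60 and 5.41 FPKM in PAMH hearts and 4.98, 5.95, 5.33, 5.10 and 4.65 FPKM in control hearts. The groups overlapped (log2 fold change 0.13, limma adjusted p = 0.360). The most negative estimate of the group was that of Eif2a, a factor distinct from the alpha subunit of eIF2, with 4.42 ± 0.696 FPKM in PAMH hearts and 5.10 ± 0.431 FPKM in control hearts (log2 fold change -0.18, limma adjusted p = 0.282).

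None of the 4 genes of eIF2 and none of the 5 genes of its exchange factor eIF2B passed, against 6.19% of all tested genes. These factors are the target of the integrated stress response, in which phosphorylated eIF2 alpha blocks eIF2B. Eif2s1, which encodes eIF2 alpha, had 6.57, 6.12, 7.27, 6.06 and 7.27 FPKM in PAMH hearts and 5.41, 5.45, 5.49, 5.70 and 5.98 FPKM in control hearts. The PAMH values all lay above the control values by a small margin, with a log2 fold change of 0.21 (SE 0.07), and limma's adjusted p was 0.0966. Eif2s3x and its Y-linked counterpart Eif2s3y both encode eIF2 gamma in male mice. Eif2s3x averaged 10.5 ± 0.890 FPKM in PAMH hearts and 10.8 ± 0.564 FPKM in control hearts, and Eif2s3y averaged 3.73 ± 0.680 FPKM in PAMH hearts and 3.42 ± 0.580 FPKM in control hearts.

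Eif2b5, the catalytic subunit of eIF2B, was the most abundant of its complex. It had 18.6, 18.8, 14.4, 22.2 and 16.9 FPKM in PAMH hearts and 15.1, 19.8, 16.2, 15.04 and 17.1 FPKM in control hearts. The ranges overlapped widely (log2 fold change 0.12, 95% interval -0.12 to 0.35, limma adjusted p = 0.557). Eif2b4 had the most positive estimate of the complex, 0.40 on the log2 scale (95% interval 0.09 to 0.70), with 13.7 ± 2.51 FPKM in PAMH hearts and 10.1 ± 1.94 FPKM in control hearts, and did not pass (limma adjusted p = 0.107). Eif2b3 was the least abundant, at 1.40 ± 0.144 FPKM in PAMH hearts and 1.23 ± 0.208 FPKM in control hearts.

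The 14 eIF3 genes did not pass in either direction, against 6.19% of all tested genes that did. eIF3 is the largest initiation factor, a many-subunit platform that holds the small subunit, the other factors and the mRNA together. Its mRNAs were far from equal: Eif3h was the highest in all 10 samples, with 86.5 ± 4.10 FPKM in PAMH hearts and 81.6 ± 4.86 FPKM in control hearts. The core subunit Eif3a averaged 7.31 ± 1.48 FPKM in PAMH hearts and 8.58 ± 0.932 FPKM in control hearts, and had the most negative estimate of the complex (log2 fold change -0.22, limma adjusted p = 0.313). PAMH replicate 4 was lowest for it at 4.81 FPKM. Estimates were positive for 9 of the 13 genes other than Eif3j2, against 67.3% of all tested genes.

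Eif3j2 was uneven. It was listed at 0 in all 5 control hearts and in PAMH replicates 1 and 4, and at 4.63, 0.958 and 4.60 FPKM in PAMH replicates 2, 3 and 5. It passed the filter on low values through the PAMH group alone, so its estimate of 1.19 (limma adjusted p = 0.133) is not read as a change. Eif3j2 matched Eif3j1 at 99.4% over 2379 bases, and the values of both depend on how shared reads were divided. Eif3j1 had 8.48, 7.41, 8.20, 5.32 and 8.54 FPKM in PAMH hearts and 7.60, 7.33, 7.06, 7.98 and 8.02 FPKM in control hearts. PAMH replicate 4 was the lowest and the other PAMH values lay close to the control range. In total, 20 of the 63 members had such a copy elsewhere in the genome, at 95% identity or more over at least 300 bases, and for 13 of them a copy averaged at least 1 FPKM.

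**Figure D5:**
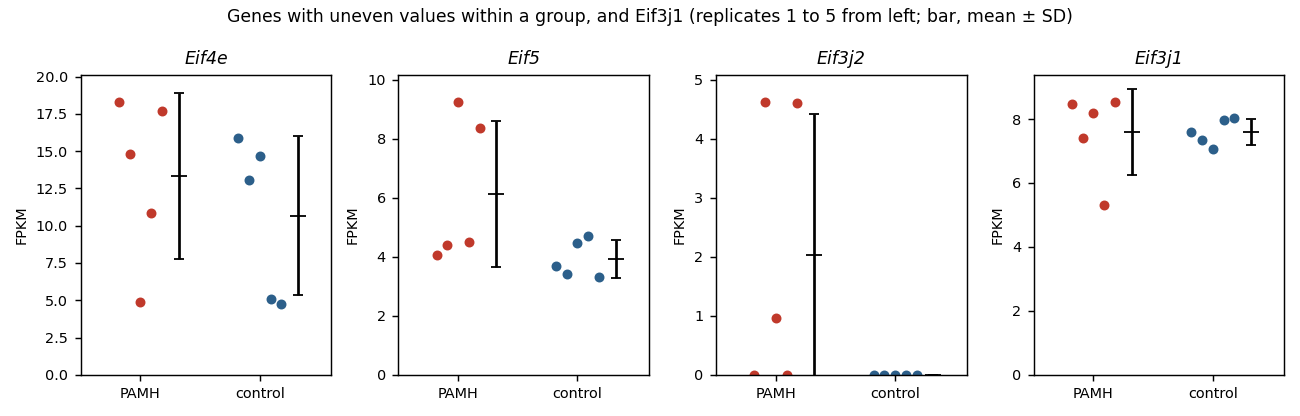
FPKM per sample of Eif4e, Eif5, Eif3j2 and Eif3j1; points are replicates 1 to 5 from left and bars are mean ± SD, with axes from 0 so that the lower SD of Eif3j2 is not drawn. Eif4e splits into high and low samples in both groups, Eif5 is high in PAMH replicates 3 and 5, and Eif3j2 is above 0 in 3 PAMH samples.

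Among the members whose symbol begins with Eef1 or Eef2, Eef1e1 alone passed the test. Eef1e1 (chr13:38644207-38659058), also known as AIMP3 or p18, is a scaffold protein of the multi-tRNA synthetase complex and was grouped with eEF1 by its symbol. It had 5.09, 4.31, 5.36, 3.93 and 5.77 FPKM in PAMH hearts and 3.77, 3.15, 2.84, 2.80 and 3.47 FPKM in control hearts. PAMH replicate 4 was just above control replicate 1 and the groups did not overlap (log2 fold change 0.48, SE 0.10, limma adjusted p = 0.0176). The call ended without control replicate 3 or 4 (limma adjusted p from 0.0507 to 0.0523) and under median ratio scaling, quantile normalization and no filter on low values (0.0574, 0.0556 and 0.0610). It was the single member call that held with replicate number as a block.

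The carriers and the translocase did not pass. Eef1a2 had 459.6, 500.4, 389, 513 and 441 FPKM in PAMH hearts and 440.3, 536, 465, 433 and 424 FPKM in control hearts. The ranges were nearly the same (log2 fold change 0.00, 95% interval -0.19 to 0.20, limma adjusted p = 0.992). Eef1a1 had 199, 170.5, 209, 199 and 212 FPKM in PAMH hearts and 201, 218, 209.6, 201 and 196 FPKM in control hearts, again overlapping (log2 fold change -0.05, 95% interval -0.21 to 0.10, limma adjusted p = 0.684). Eef2 (chr10:81176631-81182498) had 335, 321, 306, 356 and 307 FPKM in PAMH hearts and 349, 389, 367, 332 and 339.9 FPKM in control hearts. PAMH replicate 4 and, narrowly, replicate 1 reached into the control range, and the log2 fold change of -0.13 (95% interval -0.28 to 0.02, limma adjusted p = 0.269) passed under quantile normalization alone, at an adjusted p of 0.00897. Eef1g, a subunit of the exchange factor that reloads eEF1A with GTP, came close without passing and is named here after its values were seen. It averaged 78.7 ± 9.998 FPKM in PAMH hearts and 62.8 ± 3.64 FPKM in control hearts (SD, n = 5 each, log2 fold change 0.31, limma adjusted p = 0.0540). Its pseudogene Gm4366, which matched it at 99.6% over 1342 bases, averaged 22.4 ± 3.18 FPKM in PAMH hearts and 16.2 ± 1.01 FPKM in control hearts (log2 fold change 0.43, limma adjusted p = 0.0206), and how reads were divided between the pair is not known.

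The 3 abundant genes Eef1a1, Eef1a2 and Eef2 together made up 47.5 ± 0.904% of the summed FPKM of the 63 members in PAMH hearts and 50.9 ± 0.817% in control hearts (SD, n = 5 each). The highest PAMH share, 48.3%, was below the lowest control share, 50.1%. Their own sum averaged 984 ± 59.3 FPKM in PAMH hearts and 1020.1 ± 76.0 FPKM in control hearts, and the other 60 members summed to 1089.6 ± 69.2 FPKM in PAMH hearts and 984 ± 43.1 FPKM in control hearts. Both sums overlapped between the groups, so the groups were separated by the share and by neither sum.

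Eif5a, whose product needs the modified lysine hypusine and helps ribosomes through difficult peptide bonds, had 90.2, 77.2, 70.9, 91.2 and 78.4 FPKM in PAMH hearts and 71.4, 86.5, 73.4, 72.6 and 68.7 FPKM in control hearts. Control replicate 2 stood apart from the other controls and within the PAMH range (log2 fold change 0.13, 95% interval -0.07 to 0.32, limma adjusted p = 0.409). Its paralog Eif5a2 stayed at 0.450 FPKM or less in every sample. Of the 4 tested methyltransferases that modify eEF1A or eEF2, none passed, against 6.19% of all tested genes. Eef1akmt1 was the most abundant, with 20.2 ± 2.598 FPKM in PAMH hearts and 17.3 ± 2.25 FPKM in control hearts, and Eef1akmt4 had the most positive estimate (log2 fold change 0.35, limma adjusted p = 0.200).

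Ratios of paralogs and partners within a sample do not depend on a sample's scaling factor and gave no difference past the threshold. Of the 8 ratios computed, none had an adjusted p under 0.744 in exact 2-sided permutation tests over the samples, whose smallest possible p was 0.00794. After adjustment over 8 ratios a single ratio at that minimum would stand at 0.0635, so no ratio could have passed on its own. Eef1a1 over Eef1a2 averaged 0.436 ± 0.0771 in PAMH hearts and 0.448 ± 0.0241 in control hearts (exact permutation p = 0.651). Eif4a1 over Eif4a2 averaged 0.933 ± 0.138 in PAMH hearts and 1.001 ± 0.174 in control hearts (exact permutation p = 0.5), so no shift between the members of the helicase pair was detected. The smallest unadjusted p was that of Eif4g3 over Eif4g1, 0.0529 ± 0.00603 in PAMH hearts and 0.0590 ± 0.00481 in control hearts (exact permutation p = 0.111). Eif4ebp1 over Eif4e ran from 0.857 to 3.19 in PAMH hearts and from 0.984 to 2.71 in control hearts, following the uneven Eif4e values.

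Of 9 members known to carry TOP tracts, 1 passed, Eif4b, against 6.19% of all tested genes, and 5 had positive estimates, against 67.3%, with a median log2 fold change of 0.08, against 0.07. The other genes of translation and its control, in 9 lists of 80 genes, had 77 tested, of which 3 were higher and 0 lower by limma's adjusted p (3.90%, against 6.19% of all tested genes). At an unadjusted p under 0.05 there were 16 of these 77 genes and 16 of the 59 members (15 of 58 without Eif3j2), against 24.0% of all tested genes. The 3 genes lay in different lists. Ppp1cc, a catalytic subunit of the phosphatase that acts on eIF2 alpha among many targets, averaged 17.1 ± 2.62 FPKM in PAMH hearts and 12.2 ± 1.66 FPKM in control hearts (log2 fold change 0.46, limma adjusted p = 0.0410). Mtif2, the mitochondrial initiation factor, averaged 8.51 ± 0.958 FPKM in PAMH hearts and 6.19 ± 0.450 FPKM in control hearts (log2 fold change 0.40, limma adjusted p = 0.0165). Rars, the arginyl-tRNA synthetase that belongs to the same complex as Eef1e1, averaged 8.04 ± 1.003 FPKM in PAMH hearts and 6.14 ± 0.631 FPKM in control hearts (log2 fold change 0.34, limma adjusted p = 0.0490). The other 22 genes of its list did not pass. That list took in cytosolic tRNA synthetases, the scaffold genes Aimp1 and Aimp2, and Fars2, which encodes a mitochondrial synthetase. That list's median log2 fold change was 0.04, against 0.07 over all tested genes. Mtif2 missed the threshold without control replicate 3 (limma adjusted p = 0.0509), under quantile normalization (0.0582) and with the replicate block (0.0653). Ppp1cc passed without PAMH replicate 2 or control replicate 1 and missed it without any of the other 8 samples (limma adjusted p from 0.0524 to 0.104), and Rars passed without PAMH replicate 3 and missed it without any of the other 9 (0.0533 to 0.123). Neither Ppp1cc nor Rars passed under median ratio scaling, under quantile normalization or with no filter on low values. Ppp1cc also missed the threshold with sample weights (limma adjusted p = 0.0662) and with the replicate block (0.0611). Rars also missed it with mitochondrial genes left out (limma adjusted p = 0.0507).

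Of the kinases that act on these factors, Eef2k, which inactivates eEF2, averaged 3.25 ± 0.511 FPKM in PAMH hearts and 2.68 ± 0.228 FPKM in control hearts (limma adjusted p = 0.194). Mtor averaged 4.29 ± 0.446 FPKM in PAMH hearts and 3.58 ± 0.353 FPKM in control hearts (limma adjusted p = 0.145). Neither passed, at log2 fold changes of 0.20 and 0.21. Eif2ak1 and Eif2ak2, the eIF2 kinases that reached the filter, did not pass either, at 0.12 and -0.21. The same held for Mknk1 and Mknk2, at 0.11 and -0.12, and for Rps6kb1 and Rps6kb2, at 0.19 and 0.02. No list other than those of Ppp1cc, Mtif2 and Rars held a gene that passed. mRNA levels do not show the phosphorylation on which most of this control rests, which was not measured here.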

How the data were processed

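RNA-seq of 10 whole-heart samples was analysed. The authors deposited 1 table of FPKM for 55335 Ensembl genes. Per the submitters' processing notes, the build was mm10, and the tools named were HISAT2 2.2.1 and HTSeq 0.13.5, besides Trimmomatic 0.38 and FastQC 0.11.9, with DESeq2 1.18.1 and R 3.4.1. What gave the FPKM, the strand setting and the treatment of multi-mapping reads are not stated. Of genes with several transcripts 99.1% had values of over 6 decimals, against 1.27% of single-transcript genes, so depth could not be recovered. GENCODE vM21 named 55154 identifiers, and 181 were not found.

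Genes averaging at least 1 FPKM were fitted as log2(FPKM + 1) by group with limma 3.58.1 (R 4.3.3), with an intensity trend, 2-sided, Benjamini-Hochberg over all genes. On simulated data the fit recovered 70% of changes of 0.5 and 92% of changes of 1.0 on the log2 scale. There, 12 of 174 calls were false. Changes as small as those of the called members were not simulated. Values in every sample were given for members past the threshold and a panel of 12 genes (Eef1a1, Eef1a2, Eef2, Eif2s1, Eif2b5, Eif4e, Eif4ebp1, Eif4g1, Eif4a1, Eif4a2, Eif5a, Eif6). Eif5, Eif3j1 and Eif3j2 were also shown by sample. Others were named for the extremes of their role group. Eif4h, Eif3j1, Eef1g and the kinase genes were named outside these rules. Copies were sought with blastn 2.17.0. Members, lists and tests were chosen with earlier results of these data known. Alternatives changed the filter, pseudocount, scaling, weights, block and samples. Same-numbered samples' deviations correlated at -0.19 to 0.16. PAMH replicates 1 and 2 correlated best with the control of the same number, and the others with a control of another number. These few correlations cannot settle whether the numbers pair samples, and no label says so.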

Additional observations from a re-analysis of the deposited data

Results flagged for a closer look

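In 5 of the 72 sets of 5 samples examined, 1 sample lay far from the other 4, and chance alone marks about 1 set in 20. Eef1akmt4 stood at 4.31 FPKM in PAMH replicate 4, against 1.70 to 2.28 FPKM in the other PAMH hearts. The other 4 were in control replicate 2. Eif4g1 was 43.6 FPKM there, against 37.8 to 39.1 FPKM in the other control hearts, and Eif5a was 86.5 FPKM, against 68.7 to 73.4 FPKM. Eif2a was 4.35 FPKM there, against 5.19 to 5.44 FPKM, and the log2 ratio of Eef1a1 to Eef1a2 was -1.30, against -1.15 to -1.11. These 2 samples are the ones whose deviations over the members correlated most with transcript GC content, at r = 0.59 in PAMH replicate 4 and r = 0.72 in control replicate 2. The part of GC content in these values was not tested.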

How the results depend on the processing

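Of 825 alternative values of 43 results, 684 kept direction and call. Called members numbered 4 with no filter, 3 under median ratio scaling, 4 under quantile normalization, 12 with sample weights and 1 with the replicate block, against 7, and 2 to 9 with a sample left out. The 12 with sample weights included Eif3j2, which passed the filter through the PAMH group alone. All-gene calls were 264 with no filter, 1214 with weights, 239 with the block and 918 with a trend on transcript length and GC removed (chosen after seeing the data), against 584, and 278 to 1126 with a sample left out. Other translation genes called were 1 with no filter, 1 under quantile normalization, 6 with weights, 1 with the block and 9 with the trend removed, against 3, and 0 to 6 with a sample left out. The members' median was 0.0413 under median ratio scaling and 0.0190 under quantile normalization. The cause of these shifts was not tested. Signs turned for Eif2b1 (0.0337 rescaled to equal sums, 0.0391 with weights), Eef1a2 (-0.10 median ratio, -0.13 quantile, -0.0154 without mitochondrial genes, -0.0537 trend removed), Eif4ebp1 (-0.0649 and -0.0933) and Eif4enif1 (-0.0599 and -0.0601) under median ratio and quantile, and Eif2b5 (-0.0071) and Eif4ebp2 (-0.0167) under quantile. With a sample left out, estimates spanned -0.0382 to 0.0610 for Eef1a2, -0.0417 to 0.0390 for Eif2b1, -0.0739 to 0.000127 for Eif2s3x, -0.0239 to 0.0886 for Eif4ebp1 and -0.0218 to 0.0569 for Eif4enif1. Log2 ratio differences spanned -0.14 to 0.0290 for Eef1a1/Eef1a2, -0.17 to 0.0232 for Eif1ax/Eif1a and -0.45 to 0.28 for Eif5a/Eif5a2, which was 0.0760 with a pseudocount of 1. Whether replicate numbers pair the samples is not known, so the block is given as an alternative. With 5 samples a group and unknown depth, changes in members of low FPKM may have gone undetected.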
